A study of Mus musculus with 12 samples.

Results

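Genes whose products take up, cleave, bind, esterify or oxidise vitamin A in the intestinal epithelium, or control these steps, were followed in small and large intestine, before and after culture. The genes Scarb1, Bco1, Isx, Rbp2, Lrat, Adh1, Rdh7, Aldh1a1 and Aldh1a3 were chosen by symbol. These are 9 of the 55487 genes in the count tables, and all 9 passed the filter on low counts, as did 19581 genes in all. RNA-seq was available from 12 libraries of C57BL/6 mice, 3 per group. The small and large intestine gave the SI tissue and LI tissue groups, with 1 mouse per library, named crypt in the sample titles. The paper's methods give freshly isolated crypts as the source of this RNA, whereas a figure legend names harvested intestines. SI monolayers and LI monolayers were epithelial sheets grown for 24 h from freshly isolated crypts, each library from pooled wells. The mice were young adults of either sex with no engineered allele named, and no drug was given to any group. The small intestinal crypts came from jejunum released with EDTA, whereas the large intestine of the same mice was digested with collagenase, Dispase and DNAse before EDTA, so region and release method cannot be told apart. Monolayers were seeded with a GSK3 inhibitor, a BMP receptor inhibitor and a ROCK inhibitor, and then kept in WENR medium, which holds Wnt3a, EGF, Noggin and R-spondin-1. Both media contain B-27, a supplement whose usual form holds retinyl acetate, and the retinoid content of the medium was not given in the sources used here. How many mice or isolations lay behind the pooled wells was not given either, so the spread between monolayer libraries may be technical. The p-values rest on a spread estimated for each gene over all groups together. Those for tissue therefore also draw on the monolayer libraries, and those for monolayers on the tissue libraries. The median coefficient of variation of the 9 genes was 29.7% in SI tissue and 41.5% in LI tissue. In the respective monolayers it was 2.75% and 3.71%. The p-values between tissues may thus be too small, and those between monolayers too large.

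Vitamin A reaches the enterocyte as retinol or as carotenoids such as beta-carotene. Carotenoids enter with the help of the scavenger receptor encoded by Scarb1 and are cleaved to retinal by the oxygenase encoded by Bco1, while the homeodomain factor ISX, which is induced by retinoic acid, represses both genes. Retinol is bound inside the cell by RBP2 and esterified by LRAT for export in chylomicrons. The remainder can be oxidised, first reversibly to retinal by alcohol and retinol dehydrogenases such as those encoded by Adh1 and Rdh7, then irreversibly to retinoic acid by the retinaldehyde dehydrogenases encoded by Aldh1a1, Aldh1a2 and Aldh1a3. Retinoic acid made in the gut, by whichever cells, is best known for instructing immune cells to home to the gut.

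The promoters of Rbp2 and Bco1 are shown because both windows hold, close to the RefSeq transcript start, the hexamer AGGTCA that nuclear receptors, those for retinoic acid included, recognise. Capitals mark this hexamer, which in both genes lies on the opposite strand and so reads TGACCT. Each run is the 250 bases before the start on the plus strand of GRCm38.p6, from RefSeq, written 5′ to 3′. The Rbp2 window is chr9:98490287-98490536 and the Bco1 window is chr8:117095615-117095864.
Rbp2: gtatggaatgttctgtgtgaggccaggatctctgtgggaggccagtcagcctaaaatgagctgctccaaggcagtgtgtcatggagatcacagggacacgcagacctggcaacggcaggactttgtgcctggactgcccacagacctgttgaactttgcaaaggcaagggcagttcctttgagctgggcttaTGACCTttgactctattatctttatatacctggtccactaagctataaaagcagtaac
Bco1: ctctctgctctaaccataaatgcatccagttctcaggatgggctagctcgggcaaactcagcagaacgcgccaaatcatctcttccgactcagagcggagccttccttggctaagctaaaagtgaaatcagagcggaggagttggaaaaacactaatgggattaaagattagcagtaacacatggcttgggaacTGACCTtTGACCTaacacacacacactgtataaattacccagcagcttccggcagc
The Rbp2 match lay 58 bases before the start. Bco1 had 2 matches, at 56 and 49 bases, forming a direct repeat with 1 base between. AGGTCA occurred on either strand in 14.02% of the 32851 promoter windows of the same length, and the repeat AGGTCANAGGTCA in 11 of them (0.033%). Neither Lrat, Isx, Aldh1a1 nor Adh1 had a match, and Rdh7 had 1 in the first of its 2 entries. The homeodomain core TAATTA, found in 4.84% of windows, was in none of these genes' windows. A match is a description of the letters and not a binding site. Aldh1a3 and Scarb1 have no entry. The RefSeq start of Rbp2 lies inside the longer GENCODE span of the gene. Gene positions given with the Ensembl identifiers are from GENCODE on GRCm38.

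Library depth ran from 59016196 to 76216530 counts assigned to genes, so that 3 counts equal 0.0391 to 0.0525 CPM (counts per 1000000), and all 9 genes lay above that limit in every library. CPM were taken relative to library totals adjusted by TMM, and fold changes with standard errors (SE) come from a quasi-likelihood fit over the 19581 tested genes. A gene was called at a Benjamini-Hochberg adjusted p under 0.05 if it also changed by 1 or more on the log2 scale, in either direction. All 8 epithelial markers were present in every group, with summed levels of 13100 to 14340 CPM (SI tissue), 22030 to 22360 (LI tissue), 27200 to 28000 (SI monolayers) and 35300 to 36420 (LI monolayers). Markers of single epithelial cell types and of other cells moved with the groups. The 12 absorptive enterocyte markers summed to 17200 to 26800 CPM in SI tissue and 419.3 to 628.1 in LI tissue, against 6092 to 6345 and 289.4 to 357.2 in the respective monolayers. In SI culture 8 of them were called lower and 0 higher, with a median log2 fold change of -2.60. Of all tested genes, 16.4% were called lower and 9.71% higher in SI culture, and 23.5% and 14.5% in LI culture. In LI culture 2 of the enterocyte markers were called lower and 1 higher, not above those shares. Their median there was 0.708, although the LI sums were lower in culture. The 4 colonocyte markers, all called lower in LI culture, summed to 2782 to 5050 CPM in LI tissue but 501.1 to 523.5 in LI monolayers. The 12 immune markers summed to 385.9 to 528.5 CPM in SI tissue and 39.02 to 51.5 in LI tissue, and to 15.23 to 17.02 and 3.247 to 5.14 in the monolayers, with 11 called lower in culture in each region. No marker of these lists was at 0 throughout a group, and their part in the results that follow was not tested. The 6 stem and cycling markers summed to 1506 to 1892 CPM in SI tissue and 308.1 to 447.9 CPM in the other groups. Olfm4 alone averaged 1252 CPM in SI tissue. With culture 1 of the 6 was called lower in SI, near the share of all genes, and 3 in LI, and 0 higher in either. Their median log2 fold changes were -0.438 and -1.75. The 12 mesenchymal and endothelial markers were low throughout, at 12.77 to 31.28 CPM in SI and 35.25 to 69.06 CPM in LI libraries, and 1 of them was at 0 in SI monolayers. Of the adipocyte, exocrine pancreas and hepatocyte markers, the sums came mostly from 1 gene each, Cidec, Cela1 and Ttr.

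Of the pair that serves carotenoid uptake and cleavage among the 9 genes, Scarb1 and Bco1, Scarb1 changed more with region and culture. Scarb1 (ENSMUSG00000037936.15, chr5:125277087-125341094, minus strand) stood at 4.076, 4.966 and 4.393 CPM in SI tissue, and at 19.03, 18.58 and 18.89 CPM in SI monolayers. In LI tissue it was at 26.51, 25.81 and 24.87 CPM, and in LI monolayers at 50.67, 51.83 and 52.25 CPM. The 4 groups did not overlap, and SI tissue was the lowest throughout. SI monolayers exceeded SI tissue by 2.07 ± 0.074 (log2, SE, adjusted p = 1.65e-12), and SI tissue lay below LI tissue, with a log2 fold change of -2.52 ± 0.074 (adjusted p = 2.06e-13). The rise from LI tissue to LI monolayers was 1.003 ± 0.067 (adjusted p = 1.01e-09), which is at the fold threshold. It fell under that threshold in 13 of 19 alternative fits, in which it ranged from 0.884 to 1.025. The regional difference was also present in culture, at -1.45 ± 0.068 (adjusted p = 4.59e-11).

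Bco1 (ENSMUSG00000031845.15, chr8:117095854-117133720, plus strand) was the steadiest of the 9 genes across groups. Its levels were 4.093, 5.845 and 3.017 CPM in SI tissue and 4.302, 6.233 and 4.528 CPM in SI monolayers. LI tissue held 1.924, 2.214 and 2.296 CPM and LI monolayers 2.276, 3.245 and 3.664 CPM. Tissue and monolayers overlapped in both regions, and culture was not called in either. The log2 difference was 0.22 (95% interval -0.28 to 0.71, adjusted p = 0.439) in SI and 0.51 (-0.002 to 1.025, adjusted p = 0.0715) in LI. SI tissue exceeded LI tissue by 1.01 ± 0.239 (adjusted p = 0.00207), again at the fold threshold, with values of 0.728 to 1.21 over the alternatives and under 1 in 15 of 19. Without the second SI tissue library, the highest of its group, the difference was 0.728 (adjusted p = 0.0149).

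The factor gene Isx, expressed in gut epithelium and a repressor of Scarb1 and Bco1, was lowest in LI tissue and at nearer levels in both monolayers. Isx (ENSMUSG00000031621.9, chr8:74873173-74893506, plus strand) was at 71.93, 69.25 and 67.3 CPM in SI tissue and 98.46, 95.01 and 97.52 CPM in SI monolayers. In LI tissue it was at 22.51, 30.42 and 18.2 CPM, and in LI monolayers at 81.82, 82.28 and 85.66 CPM. All 3 LI tissue libraries were below all others. Isx rose 1.81 ± 0.141 (log2) from LI tissue to LI monolayers (adjusted p = 3.84e-07). In SI the difference of 0.48 ± 0.136 had an adjusted p of 0.01 but was under the fold threshold. The difference between SI and LI was 1.55 ± 0.14 in tissue (adjusted p = 2.87e-06) and 0.22 in monolayers (95% interval -0.08 to 0.52, adjusted p = 0.205). In the LI monolayers, where Isx was higher than in LI tissue, Scarb1 was also higher and Bco1 was not called. In SI tissue, where Isx was likewise higher than in LI tissue, Scarb1 was lower and Bco1 higher, the latter at the fold threshold. Whether Isx bears on either gene here was not tested.

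**Figure D1:**
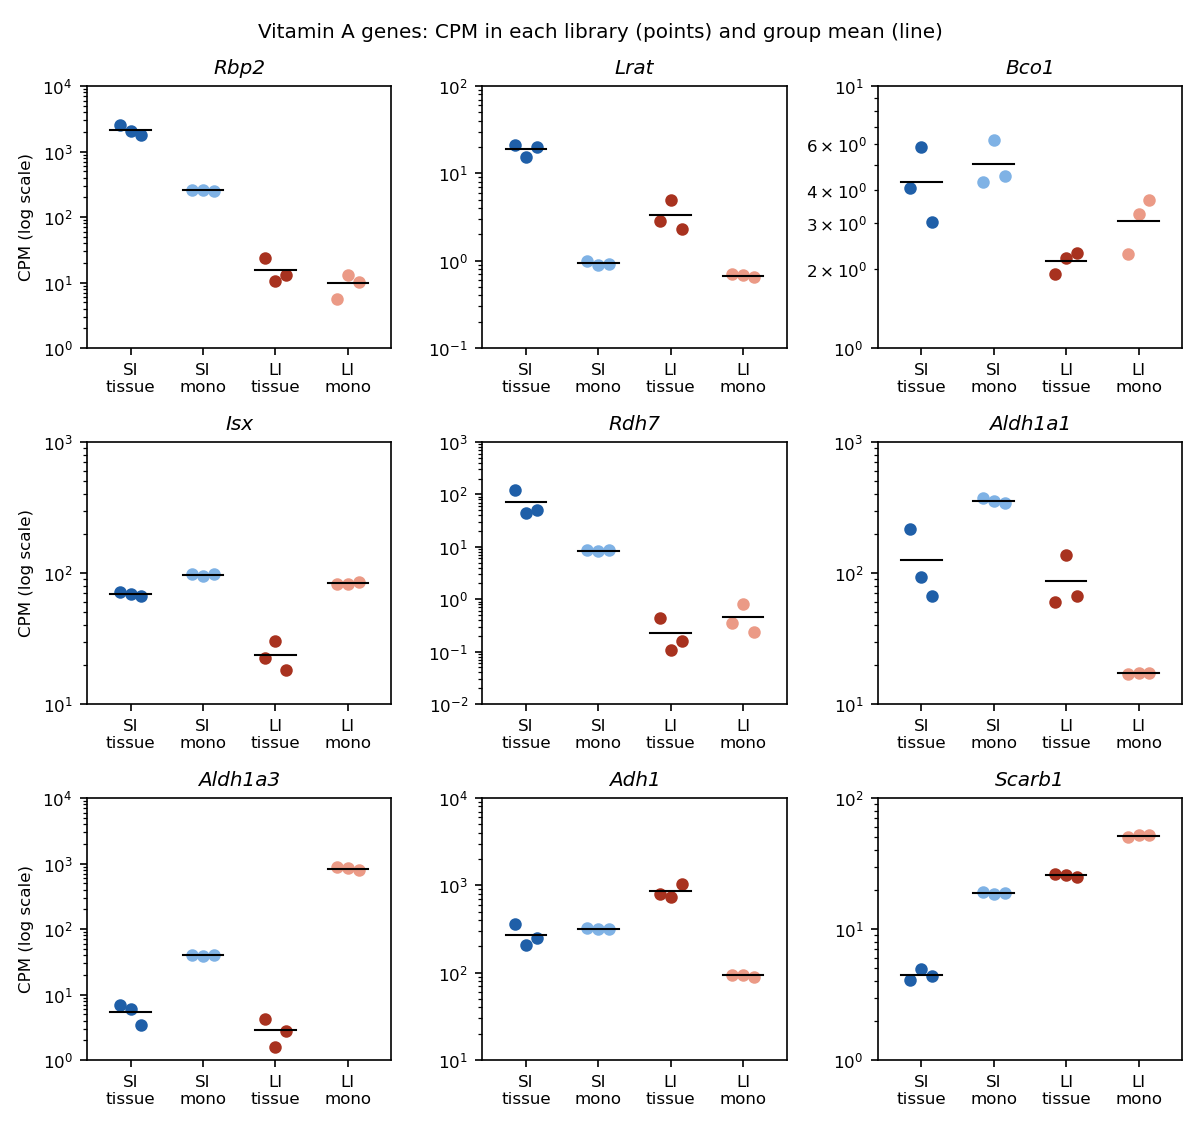
Level of each of the 9 genes in CPM (log axis, with its own range in each panel) in the 12 libraries. Points are libraries and lines are means of 3. Rbp2 has its highest mean in SI tissue at 2138 CPM, and Aldh1a3 in LI monolayers at 833.6 CPM.

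The genes of retinol binding and esterification, Rbp2 and Lrat, were highest in SI tissue, and both fell in SI culture. Rbp2 (ENSMUSG00000032454.9, chr9:98486115-98509781, plus strand), whose product binds retinol and retinal in the enterocyte, was at 2568, 2065 and 1780 CPM in SI tissue. SI monolayers held 258.2, 262.2 and 253 CPM. LI tissue had 23.63, 10.44 and 12.92 CPM, and LI monolayers 5.624, 13.18 and 10.23 CPM. The SI groups were apart from each other and from both LI groups, whose libraries overlapped. The level in SI monolayers was 8.29-fold below SI tissue (log2 -3.05 ± 0.375, adjusted p = 0.000104). Of the 12 enterocyte markers, 8 were called lower in the same comparison, and in bulk libraries fewer enterocytes and less RNA per enterocyte cannot be told apart. LI culture gave -0.70 (95% interval -1.55 to 0.15, adjusted p = 0.127), which was not called. Rbp2 was higher in SI than in LI, by 7.09 ± 0.455 in tissue (adjusted p = 1.48e-06) and 4.74 ± 0.413 in monolayers (adjusted p = 1.34e-05).

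Lrat (ENSMUSG00000028003.6, chr3:82892579-82903973, minus strand), the main retinol esterifying enzyme, fell in both regions. It was at 21.23, 15.21 and 20.21 CPM in SI tissue and 0.9917, 0.8963 and 0.9195 CPM in SI monolayers. LI tissue held 2.826, 4.971 and 2.335 CPM and LI monolayers 0.6957, 0.6831 and 0.6474 CPM. Tissue libraries exceeded monolayer libraries without overlap. The fall was 20.2-fold in SI (log2 -4.33 ± 0.252, adjusted p = 1.97e-09), and in LI the log2 fold change was -2.32 ± 0.26 (adjusted p = 1.51e-06). SI tissue exceeded LI tissue by 2.48 ± 0.223 (adjusted p = 2.86e-07). The monolayers differed by 0.47 (95% interval -0.14 to 1.08, adjusted p = 0.191). Dgat1, whose product makes triglyceride and can also esterify retinol, was much the more abundant of the pair. Per kb of exon, Lrat made up 1.57% ± 0.398 of the summed Lrat and Dgat1 level in SI tissue and 3.81% ± 1.62 in LI tissue, against 0.198% ± 0.0167 and 1.29% ± 0.0763 in the respective monolayers (SD, n = 3).

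Of the enzymes that oxidise retinol to retinal, Adh1 was abundant in every group and highest in LI tissue, and Rdh7 was largely a small intestinal gene. Adh1 (ENSMUSG00000074207.10, chr3:138260991-138290698, plus strand) was at 363, 206.4 and 249 CPM in SI tissue and 320.9, 320.2 and 314.8 CPM in SI monolayers. LI tissue held 802.4, 734.5 and 1037 CPM and LI monolayers 94.27, 94.72 and 89.5 CPM. The regional order was thus opposite in tissue and in culture, with no overlap in either. SI tissue was below LI tissue, with a log2 fold change of -1.65 ± 0.198 (adjusted p = 7.16e-05), and SI monolayers were above LI monolayers by 1.78 ± 0.2 (adjusted p = 4.8e-05). In LI the change with culture was -3.21 ± 0.211 (adjusted p = 4.24e-07). In SI it was 0.22 (95% interval -0.21 to 0.66, adjusted p = 0.351), with overlapping libraries. All 4 colonocyte markers were called lower in LI culture, where 23.5% of all tested genes were, and 2 of the 4 in SI culture. Their part in the Adh1 values was not tested. An antisense gene, Gm16559, overlaps 136 bases (6.09%) of Adh1 exons, and the strand setting of the counting was not given in the sources used here.

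Rdh7 (ENSMUSG00000040134.8, chr10:127884028-127888817, minus strand), a short-chain retinol dehydrogenase, was at 119.1, 44.64 and 50.61 CPM in SI tissue and 8.575, 8.175 and 8.582 CPM in SI monolayers. It was at 0.4306, 0.106 and 0.1566 CPM in LI tissue, from 8 to 32 counts, and at 0.3478, 0.8197 and 0.2354 CPM in LI monolayers, from 16 to 48 counts. Every SI library was above every LI library, and the LI groups overlapped. The log2 difference between SI and LI was 8.27 ± 0.637 in tissue (adjusted p = 4.86e-06) and 4.21 ± 0.597 in monolayers (adjusted p = 0.000321). It became 9.06 in tissue without the first LI tissue library and 4.87 in monolayers without the second LI monolayer library, the highest of their groups. Culture gave -3.08 ± 0.434 in SI (adjusted p = 0.000247) and 0.97 in LI (95% interval -1.22 to 3.17, adjusted p = 0.394). Rdh7 shares 12.86% of its 50-base transcript words with other genes, among them Rdh1 and Rdh18-ps, so its low LI counts are uncertain.

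The last step, from retinal to retinoic acid, showed different genes in the monolayers of SI and LI, namely Aldh1a1 in SI and Aldh1a3 in LI. Aldh1a1 (ENSMUSG00000053279.8, chr19:20492715-20643465, plus strand) was at 217.6, 93.25 and 66.29 CPM in SI tissue, and at 373.8, 353.3 and 344.3 CPM in SI monolayers. LI tissue held 59.86, 136.1 and 66.64 CPM and LI monolayers 16.97, 17.32 and 17.29 CPM. The tissue groups overlapped and were widely spread, whereas the monolayer groups were tight and lay on either side of them. Aldh1a1 rose in SI culture by 1.51 ± 0.46 (log2, adjusted p = 0.0203) and changed by -2.35 ± 0.484 in LI culture (adjusted p = 0.00223). The SI call was lost without the second SI tissue library (1.33, adjusted p = 0.0714), without the third (1.20, adjusted p = 0.0537) and in a fit of those groups only (1.54, adjusted p = 0.0568), and the difference was 2.16 without the first. SI monolayers exceeded LI monolayers by 4.38 ± 0.523 (adjusted p = 0.000115). In tissue the difference was 0.52 (95% interval -0.52 to 1.56, adjusted p = 0.375), and -0.13 without the first SI tissue library. In that library mesenchymal and endothelial markers summed to 31.28 CPM, against 16.04 and 12.77 CPM in the others of its group. Enterocyte and immune sums were also the highest there. In LI tissue the library with the highest mesenchymal and endothelial sum (69.06 CPM) had the lowest Aldh1a1 level (59.86 CPM). The part of these markers in the Aldh1a1 values was not tested. Aldh1a1 shares 3.06% of its 50-base words with Aldh1a7, a close paralogue.

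Aldh1a3 (ENSMUSG00000015134.15, chr7:66390890-66427517, minus strand) showed the largest change with LI culture among the 9 genes. In SI culture Lrat, Rdh7 and Rbp2 had larger absolute log2 changes. It was at 6.944, 6.046 and 3.397 CPM in SI tissue and 40.46, 38.31 and 39.66 CPM in SI monolayers. In LI tissue it was at 4.185, 1.604 and 2.74 CPM, and in LI monolayers at 870.8, 847.5 and 782.4 CPM. The tissue libraries of SI and LI overlapped, and every monolayer library exceeded every tissue library. The rise was 2.86 ± 0.318 (log2) in SI (adjusted p = 4.98e-05) and 8.20 ± 0.391 in LI (adjusted p = 7.39e-08), so that SI monolayers lay below LI monolayers with a log2 fold change of -4.40 ± 0.321 (adjusted p = 3.51e-06). In tissue SI exceeded LI by 0.94 ± 0.341 (adjusted p = 0.0455), under the fold threshold. It passed that threshold without the third SI tissue library (1.19, adjusted p = 0.0121) or without the first LI tissue library (1.32, adjusted p = 0.0102). Over all 19 alternative fits the difference ran from 0.65 to 1.32 and its adjusted p from 0.0102 to 0.147.

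Set against one another per kb of exon, the retinaldehyde dehydrogenases exchanged places in LI culture. Aldh1a1 made up 94.8% ± 1.73 of the summed Aldh1a1, Aldh1a2 and Aldh1a3 level in SI tissue, 92.6% ± 5.52 in LI tissue and 89.4% ± 0.339 in SI monolayers, but 1.90% ± 0.119 in LI monolayers (SD, n = 3). Aldh1a3 made up 4.98% ± 1.59, 3.94% ± 2.64, 10.6% ± 0.338 and 98.05% ± 0.127 in the same order. Aldh1a2, known from gut dendritic and stromal cells, was 3.46% ± 2.87 in LI tissue and at most 0.336% in any library of the other groups. The summed level was highest in LI monolayers, at 173.1 to 192.1 CPM per kb. It was 78.35 to 84.48 CPM per kb in SI monolayers, 14.2 to 45.62 in SI tissue and 13.9 to 28.08 in LI tissue. Every monolayer library exceeded every tissue library in this sum. These shares are of transcripts and not of enzyme activity.

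**Figure D2:**
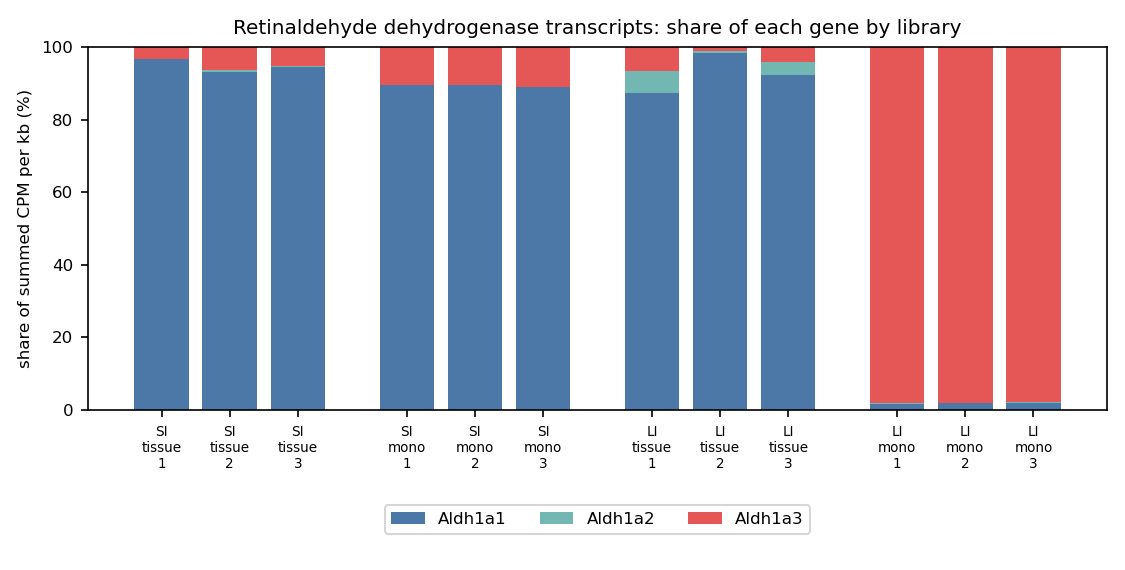
Share of the summed CPM per kb of exon (percent, vertical axis) taken by Aldh1a1, Aldh1a2 and Aldh1a3 in each of the 12 libraries (one bar each). Aldh1a1 takes 87.2% to 98.22% in every tissue and SI monolayer library, and Aldh1a3 takes 97.92% to 98.17% in the LI monolayers.

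The order of the 9 genes per kb of exon differed between groups. In SI tissue Rbp2 was first at 2222 CPM per kb, followed by Adh1 (122.2), Rdh7 (42.6), Isx (38.8), Aldh1a1 (25.5), Lrat (3.53), Bco1 (1.70), Aldh1a3 (1.18) and Scarb1 (0.527). Neighbours whose library ranges overlapped there were Rdh7 with Isx, Isx with Aldh1a1, and Bco1 with Aldh1a3. SI monolayers also had Rbp2 (268 CPM per kb) and Adh1 (142.7) at the top, then Aldh1a1 (72.4) and Isx (54.1), and ended with Lrat at 0.175. Only Scarb1 (2.22) and Bco1 (1.97) overlapped among neighbours in that group. LI tissue was led by Adh1 at 384.2 CPM per kb, with Aldh1a1 (17.7), Rbp2 (16.3) and Isx (13.2) overlapping in sequence and Rdh7 last at 0.138. Bco1 (0.843), Lrat (0.631) and Aldh1a3 (0.616) also overlapped as neighbours in LI tissue. In LI monolayers Aldh1a3 was first at 180.5 CPM per kb, ahead of Isx (46.4), Adh1 (41.6) and Rbp2 (10.1), and Lrat was last at 0.126. Rbp2 overlapped there with its lower neighbour Scarb1 (6.07), and no other neighbours did. The 9 genes had a median coefficient of variation among libraries of 29.7% in SI tissue and 41.5% in LI tissue, against 2.75% in SI monolayers and 3.71% in LI monolayers.

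**Figure D3:**
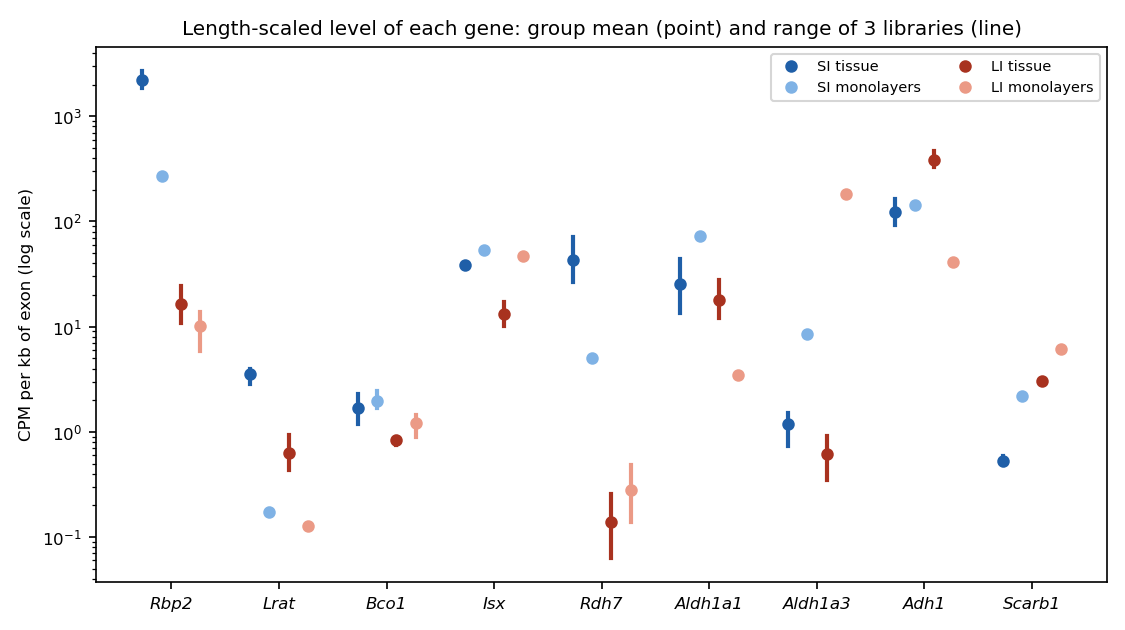
Level per kb of exon (CPM per kb, log axis) of the 9 genes in the 4 groups, with points for the group mean and lines for the range of 3 libraries. Rbp2 leads in SI tissue at 2222 CPM per kb, Adh1 in LI tissue at 384.2 and Aldh1a3 in LI monolayers at 180.5.

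Counted over the 9 genes, Scarb1, Aldh1a1 and Aldh1a3 rose and Rbp2, Lrat and Rdh7 fell in SI culture, 3 in each direction, where 9.71% of all tested genes rose and 16.4% fell. In LI culture Scarb1, Isx and Aldh1a3 rose and Lrat, Aldh1a1 and Adh1 fell, again 3 and 3, against 14.5% and 23.5% of all genes. SI tissue exceeded LI tissue in 5 genes (Rbp2, Lrat, Bco1, Isx and Rdh7) and was below it in Adh1 and Scarb1, 2 genes, where 11.6% of all genes were higher and 11.1% lower. In monolayers 4 genes were higher in SI (Rbp2, Rdh7, Aldh1a1 and Adh1) and 2 lower (Aldh1a3 and Scarb1), against 12.4% and 8.88%. The median log2 fold change of the 9 genes was 0.22 in SI culture, 0.51 in LI culture, 1.01 between tissues and 0.715 between monolayers. The culture medians turned on single libraries. In SI the median was 0.486 without the first SI tissue library, 0.48 without the second and 0.356 without the first SI monolayer library. In LI it was 0.272 without the second LI monolayer library, 0.286 without the third, and -0.174 when at least 10 counts were required in every library, which leaves out Rdh7. Over all tested genes the corresponding medians were -0.049, -0.052, 0.055 and 0.021. The culture and region comparisons share libraries and are not independent of one another.

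**Figure D4:**
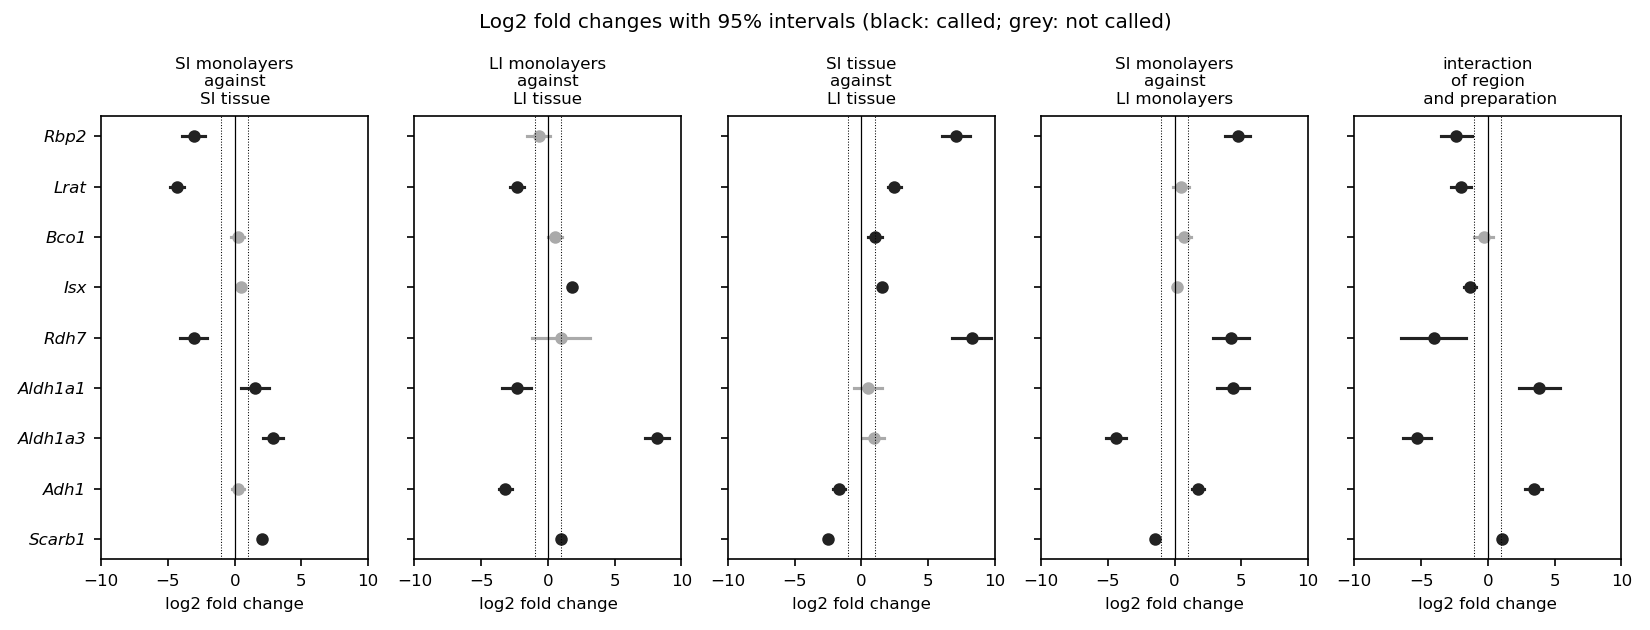
Log2 fold change (horizontal axis) of the 9 genes in 5 comparisons, with bars for 95% intervals, a solid line at 0 and dotted lines at the fold threshold of 1. Black marks called differences and grey those not called. Aldh1a3 lies at 2.86 in SI culture and 8.20 in LI culture, and Aldh1a1 at 1.51 and -2.35.

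Whether culture acted differently on the regions was tested by the interaction, the log2 change with culture in SI minus that in LI. It was called for 8 of the 9 genes, above 0 for 3 and below 0 for 5, where 11.4% of all tested genes were above and 8.51% below. The gene furthest below was Aldh1a3 at -5.34 ± 0.455 (adjusted p = 1.64e-05), which rose in both regions but more in LI. Rdh7 followed at -4.05 ± 1.06 (adjusted p = 0.0125). That call was lost without the second LI monolayer library (-3.31, adjusted p = 0.0722), and the value was -4.85 without the first LI tissue library. Rdh7 held 8 to 32 counts in LI tissue, so a fall in LI like that in SI could hardly be seen. Rbp2 stood at -2.35 ± 0.512 (adjusted p = 0.00523), Lrat at -2.01 ± 0.361 (adjusted p = 0.000365) and Isx at -1.33 ± 0.194 (adjusted p = 0.000198). Above 0 were Aldh1a1 at 3.86 ± 0.667 (adjusted p = 0.00149), Adh1 at 3.43 ± 0.281 (adjusted p = 7.94e-06) and Scarb1 at 1.07 ± 0.098 (adjusted p = 2.88e-07). Aldh1a1 thereby rose in SI and fell in LI, and its interaction was 4.51 without the first SI tissue library. Bco1 was not called, at -0.29 (95% interval -1.005 to 0.42, adjusted p = 0.509). The enterocyte list also moved more in SI than in LI, with 6 of 12 markers below 0 in the same test and 0 above.

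The wider retinoid pathway was followed in 42 other genes, of which 35 passed the filter. In SI culture 4 rose and 12 fell, with a median log2 fold change of -0.75, and in LI culture 3 rose and 18 fell, with a median of -1.04, beside medians of -0.049 and -0.052 over all genes. SI tissue exceeded LI tissue in 8 and was below it in 9, and SI monolayers exceeded LI monolayers in 14 and were below in 5. The interaction was called in 13, above 0 in 11 and below 0 in 2. The shares of all genes called in each comparison are those given above for the 9 genes.

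Among the 9 binding and transport genes, 7 were tested. In SI culture 1 rose and 3 fell, and in LI culture 1 rose and 4 fell. Rbp7, a cellular retinol-binding protein, was called lower in both regions and went in SI from 19.95 ± 2.91 CPM in SI tissue to 1.49 ± 0.301 in SI monolayers (SD, n = 3). Cd36, a fatty acid transporter that also takes up carotenoids, had 41.08 ± 12.97 CPM in SI tissue and 0.754 ± 0.282 in SI monolayers, and was under 1 CPM in both LI groups. Stra6l, a receptor for the plasma retinol carrier RBP4, fell by 2.60 on the log2 scale in SI and by 3.63 in LI. Rbp4 itself was called lower in LI, where the log2 change was -3.16 ± 0.229 (adjusted p = 3e-09), as was Ttr, which carries RBP4 in plasma (-2.48 ± 0.575, adjusted p = 0.00416). The interaction, the change with culture in SI minus that in LI, was called for Rbp4, at 2.88 ± 0.309 (adjusted p = 1.58e-06), and not for Ttr, at 1.69 ± 0.805 (adjusted p = 0.124).

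The 18 other genes of retinol and retinal oxidation and reduction gave 17 tested. In SI 2 rose and 7 fell, and in LI 1 rose and 10 fell. Rdh10, which oxidises retinol and is needed for retinoic acid in the embryo, rose from 31.3 ± 2.31 to 373.8 ± 3.89 CPM in SI and from 22.6 ± 0.286 to 473.2 ± 4.80 CPM in LI (SD, n = 3). Its log2 fold changes were 3.58 ± 0.057 (adjusted p = 6.86e-16) and 4.39 ± 0.059 (adjusted p = 5.19e-17), and its tissue and monolayer libraries did not overlap. Dhrs3, which reduces retinal back to retinol, moved the opposite way, at -1.89 ± 0.15 in SI (adjusted p = 8.43e-08) and -3.33 ± 0.166 in LI (adjusted p = 2.86e-10). Rdh16, another retinol dehydrogenase, was at 66.8 ± 8.73 CPM in LI tissue and 2.18 ± 0.228 in LI monolayers. Its relatives Rdh1 and Rdh9 were called lower in both regions and were near the count limit in LI monolayers, at 0.0243 ± 0.0222 and 0.0521 ± 0.0327 CPM, against 3.08 ± 0.915 and 6.74 ± 1.21 CPM in LI tissue (SD, n = 3). Rdh5 also fell, with log2 changes of -2.28 in SI and -3.16 in LI, whereas Adh7 and Dhrs7 were called lower in LI culture only, at -2.44 and -2.31, and for both the interaction was called. Dhrs9 rose in SI culture, by 1.82 ± 0.378 (adjusted p = 0.00199), and was lower in SI tissue than in LI tissue (-3.92 ± 0.379, adjusted p = 9.97e-06). Adh4 was higher in SI than in LI both in tissue (5.12) and in monolayers (4.51), with no culture call in either region.

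At the ends of the pathway the picture was mixed. Bco2, which cleaves carotenoids off-centre, had log2 changes with culture of -2.29 in SI and -1.07 in LI, both called, from 70.2 ± 8.03 and 9.91 ± 2.87 CPM in tissue (SD, n = 3). Dgat1 changed by -1.35 ± 0.093 in SI (adjusted p = 1.53e-08) and by -0.72 in LI, which was not called. Of the 3 other aldehyde dehydrogenases, Aldh1a2 and Aldh1a7 were tested and both fell in LI culture, at -2.29 and -2.49, and neither was called in SI. Aldh1a2 stood at 1.17 ± 0.817 CPM in LI tissue, the group with the highest level of that gene. Of the 3 retinoic acid breakdown genes, Cyp26b1 alone was tested. It was under 0.5 CPM in every library and was called higher in LI culture (1.72 ± 0.64, adjusted p = 0.0257) and in SI tissue against LI tissue (1.80 ± 0.639, adjusted p = 0.0256), while Cyp26a1 reached at most 10 counts and Cyp26c1 at most 6. The receptors Rara, Rxra and Rxrb were present at 15.75 to 165.3 CPM in all libraries and none was called in any comparison. Some of their differences had a low adjusted p but were under the fold threshold. Examples are Rara in SI against LI tissue (0.841, adjusted p = 2.63e-08), Rxra in SI culture (-0.799, adjusted p = 2.82e-08) and Rxrb in LI culture (-0.499, adjusted p = 8.47e-07). Rarg was called higher in SI culture (1.11 ± 0.155, adjusted p = 1.15e-05) and was below the LI level in SI, both in tissue (-1.91) and in monolayers (-1.503). In all, 7 of the 42 genes were not tested, and Rdh8 had no count in any library.

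**Figure D5:**
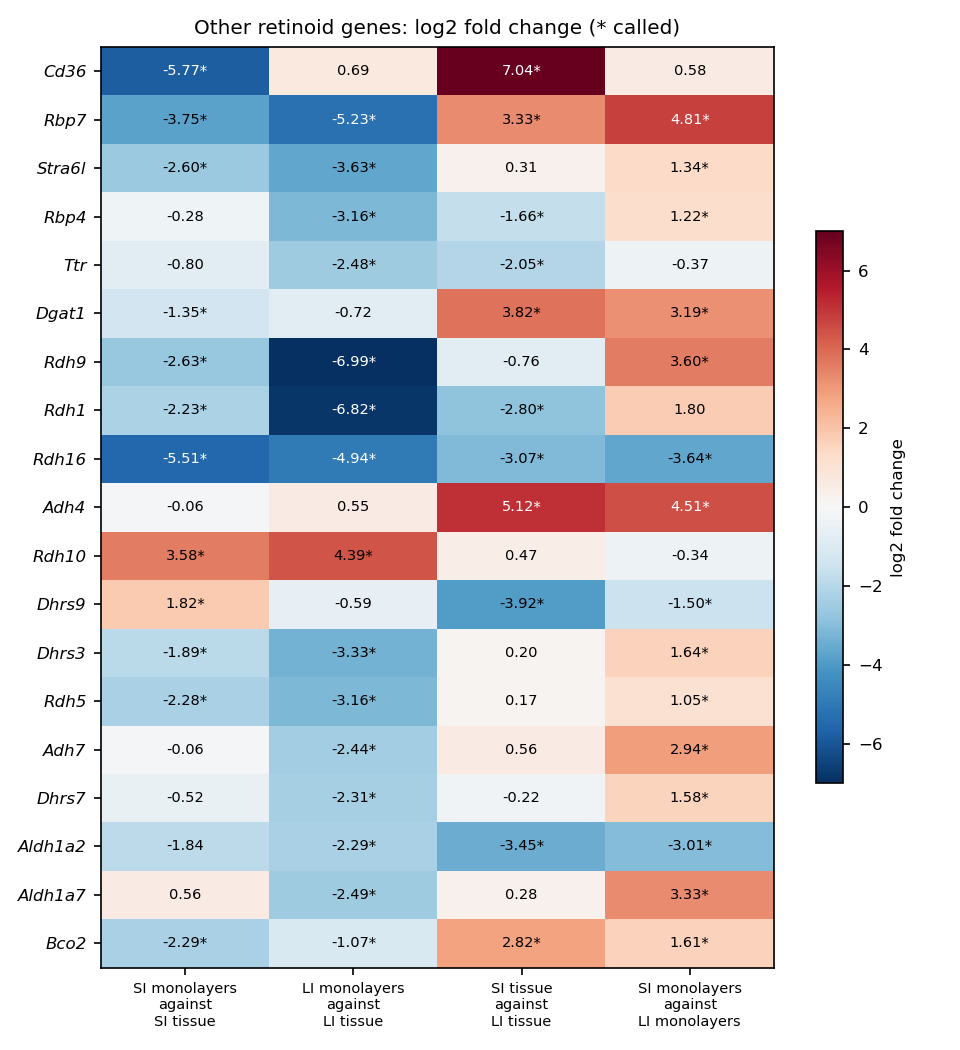
Log2 fold change of 19 other retinoid genes (vertical axis, ordered by role) in 4 comparisons (horizontal axis). Colour gives the value printed in each cell and an asterisk marks called differences. Rdh10 is the darkest red in both culture comparisons, at 3.58 and 4.39, among mostly blue cells.

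Genes whose levels followed those of 4 members most closely over the 12 libraries were sought among 9212 genes with a mean of at least 10 CPM. Likeness was the root mean square difference of gene-centred log2 CPM, so that smaller is closer, and the libraries fall into 4 groups that every such pair shares. For Rbp2 the closest were Treh (0.345), the trehalase of the brush border, 2010106E10Rik (0.59) and Ggt1 (0.591). Treh had means of 198.7 CPM in SI tissue and 12.9 in SI monolayers, and of 1.17 and 0.697 in the LI counterparts. Among the 3 closest to Isx were Pnp (0.223) and Rsad1 (0.226). Adh1 was matched by Lipg (0.276), encoding endothelial lipase, Gstm2 (0.3) and Acss2 (0.329), which like Adh1 were highest in LI tissue and lowest in LI monolayers. The closest to Aldh1a1 were its paralogue Aldh1a7 (0.569), Ptgr1 (0.57) and Ces2a (0.594). Ces2a, an intestinal carboxylesterase, had means of 174.3 and 741.7 CPM in SI tissue and monolayers and of 100.9 and 14.5 CPM in LI tissue and monolayers.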

How the data were processed

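Total RNA of 12 libraries was measured by RNA-seq. Per the labels and the study's methods, the authors aligned reads with STAR 2.7.9a to GRCm38, counted reads per gene with featureCounts 2.0.2 and deposited a table of raw counts, together with a table of counts divided by DESeq2 size factors (deposited as a signal without unit; the notes name DESeq2 3.13). The deposited signal table was used only for its size factors. Whether read pairs were counted once, and the strand setting, were not given in the sources used here. From 73.4% to 77.4% of counts between 1 and 20 were even, so both mates of a pair may have been counted, and intervals and limits from counts cover counting error only.

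Counts were tested with edgeR 4.0.16 (filterByExpr, TMM, robust quasi-likelihood fit of 4 group means over all 12 libraries, R 4.3.3), with Benjamini-Hochberg adjustment over 19581 genes. Fits were tested on simulated data. Alternatives were DESeq2 1.42.0, other scalings and filters, fits of 2 groups, a replicate block and leaving out each library. Levels per kb used union exon lengths of GENCODE vM21, where each of the 9 genes has the same version as in the files. Gene names were matched for 55141 of 55487 genes. Promoters are RefSeq windows, with 7 of 9 genes matched, and the spaced repeat was searched after the data were seen. A comparison of protein sequences was not run. Named were all 9 genes and, of the other retinoid genes, up to 20 called in some comparison with a group mean of at least 1 CPM, by largest change. The receptors, Cyp26 genes and Rdh8 were named outside this rule, to describe their roles. Genes of like pattern were the 3 closest per member. Some genes that met these rules are not reported here, though they stay in the counts. The 9 genes, gene lists and tests were chosen with earlier results of these data known.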

Additional observations from a re-analysis of the deposited data

Results flagged for a closer look

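The change with culture differed between SI and LI by a test of the difference itself (edgeR quasi-likelihood, adjusted p under 0.05 and at least 1 on the log2 scale) for 8 of the 9 genes. The values, SI minus LI, were -2.35 for Rbp2, -2.01 for Lrat, -1.33 for Isx, -4.05 for Rdh7, 3.86 for Aldh1a1, -5.34 for Aldh1a3, 3.43 for Adh1 and 1.07 for Scarb1. The Rdh7 value rests on low LI counts, and its call was lost without the second LI monolayer library (adjusted p = 0.0722). For Aldh1a1 the changes in the regions were of opposite sign, both called, at 1.51 in SI and -2.35 in LI. For Aldh1a3, Lrat and Scarb1 both changes had the same sign and were called, and for the others 1 of the regions was called.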

How the results depend on the processing

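The fold changes of the 9 genes kept their direction and call in 287 of 301 results outside the leave-one-out fits; the others, all weaker, were named with Aldh1a1, Scarb1 and Bco1. Requiring at least 10 counts in every library removed Rdh7 from the test and left 3 of the 9 genes higher in SI than in LI tissue. It also left 5 other retinoid genes lower in SI culture and 10 in LI culture, 4 higher and 4 lower between tissues, 9 higher and 2 lower between monolayers, and 7 above and 1 below 0 in the interaction. Over all genes it left 1861 lower in SI culture, 2831 lower in LI culture, 1222 higher and 1384 lower between tissues, and 1336 higher and 1106 lower between monolayers; this filter removes genes near 0 in 1 group. Leaving out single libraries gave 1 to 3 other retinoid genes below 0 in the interaction, 1 without the second LI tissue library and 3 without the first library of SI tissue, LI tissue or LI monolayers. Aldh1a1 between tissues reversed to -0.132 (adjusted p = 0.789) without the first SI tissue library, and ranged up to 0.988 without the second LI tissue library. Upper quartile scaling moved the median of all genes in LI culture from -0.052 to -0.171.

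Without division by length, Aldh1a1 shares were 90.04% in SI and 2.025% in LI monolayers, Aldh1a3 9.958% in SI monolayers and Aldh1a2 0.02818% in LI monolayers. Lrat shares were then 2.723% and 6.465% in SI and LI tissue and 0.3462% and 2.239% in the respective monolayers, and those of Dgat1 97.28%, 93.53%, 99.65% and 97.76% in the same order.

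The labels do not say whether equal replicate numbers mark the same mouse. Deviations of same-numbered libraries from their group means correlated at -0.052 to 0.056, and most libraries did not correlate best with their own number. With so few libraries per group, these values cannot settle whether mice were shared. With the replicate block, 1868 genes rose and 3149 fell in SI culture and 2815 rose and 4552 fell in LI culture. The call of Bco1 between tissues was lost (0.984), and no other call of the 9 genes changed.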

Other observations

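Within SI tissue, the first library was the highest for 7 of the 9 genes (Rbp2, Lrat, Isx, Rdh7, Aldh1a1, Aldh1a3 and Adh1), the second for Bco1 and Scarb1 and the third for 0. The summed enterocyte markers were 26800, 24850 and 17200 CPM in these libraries. Mesenchymal and endothelial markers summed to 31.28, 16.04 and 12.77 CPM, and immune markers to 528.5, 505.9 and 385.9 CPM. The part of these markers was not tested. Of the genes described here, Aldh1a1, Rdh7, Adh4, Ttr and Aldh1a7, chosen after their values were seen, were each over 1.5-fold higher in the first library than in the next, at 217.6, 119.1, 13.15, 10.7 and 33.51 CPM.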
